A study of Mus musculus with 10 samples.

Results

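Complex I (NADH:ubiquinone oxidoreductase) was followed at the level of its transcripts in hearts that overexpress SPOP. The members were taken by name: every protein-coding gene of the deposited table whose symbol begins with Nduf, which gave 46 genes of the 24888 in the table. The name covers 36 nuclear subunits of the complex, 8 assembly factors named Ndufaf, and Ndufa4 and its homologue Ndufa4l2, of which Ndufa4 has since been assigned to cytochrome c oxidase (complex IV).

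Complex I oxidises NADH from the citric acid cycle and fatty acid oxidation, passes the electrons through a flavin and a chain of iron-sulphur clusters to ubiquinone, and pumps protons across the inner mitochondrial membrane. It is L-shaped: a matrix arm carries the redox groups, and a membrane arm carries the proton channels. The nucleus encodes the core redox subunits, all accessory subunits and the assembly factors, and the mitochondrial genome encodes the core subunits of the membrane arm. Heart muscle is rich in mitochondria and depends on this route for most of its ATP.

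SPOP_CKI hearts (n = 5) came from mice in which SPOP, the substrate adaptor of a cullin-3 ubiquitin ligase, is overexpressed with Cre expressed from the Myh6 (alpha-myosin heavy chain) promoter, which is active in cardiomyocytes. Cre_control hearts (n = 5) came from mice with the Myh6Cre transgene without that overexpression, which the sample titles call WT. All animals were male, 8 to 10 weeks old and sham-treated, so both groups carry Cre and underwent the sham condition. Poly(A) RNA of the heart was sequenced, and values are read counts scaled by the authors' size factors, called scaled reads below. Whether the libraries of a group are separate animals or litters is not detailed beyond a number from 1 to 5 in the titles, after which the libraries are called hearts 1 to 5, so the p-values reflect library-to-library spread, which may be technical.

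Depth was 15316293 to 17114869 reads per library. The overexpressed gene, Spop, averaged 31897 ± 6254 scaled reads over SPOP_CKI hearts and 3425 ± 317 over Cre_control hearts (SD, n = 5 each), the direction the labels give. Library SPOP_CKI 3 stood apart, with 13167 genes above 0, against 18531 to 20806 in the other SPOP_CKI libraries and 18822 to 19965 in the controls. Values without it are given beside many of the results that it moves, but not for every member.

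All 46 members passed the filter on low values (at least 10 scaled reads in at least 5 libraries). In SPOP_CKI hearts 17 of the 46 fell and none rose (limma on log2(value + 1), adjusted p under 0.05 over 14212 genes). Over all genes tested, 12.3% were called lower and 10.0% higher. Among those called lower were, in order of fold change, Ndufv3, Ndufa3, Ndufs6, Ndufb6, Ndufb8, Ndufv1, Ndufs7, Ndufb7, Ndufb10, Ndufb11, Ndufs8, Ndufa10, Ndufa4, Ndufa7, Ndufs5 and Ndufa11, with log2 fold changes from -1.46 to -0.79. The fold change was negative for 45 of the 46, against 55.8% of all genes tested, and the exception was Ndufaf4. By edgeR and by DESeq2 it was negative for 42 of the 46, Ndufb5, Ndufaf1 and Ndufc1 being above 0 there as well. The median log2 fold change was -0.77 over the members and -0.11 over all genes tested. For 13 members every SPOP_CKI library lay below every Cre_control library, and 12.3% of all genes tested showed that pattern. On recovered reads edgeR called 16 members lower and 0 higher, where it called 10.5% of all genes lower and 11.9% higher. DESeq2 called 22 lower and 1 higher, against 14.3% and 14.9% of all genes. The authors' deposited table lists 17 members lower and 0 higher at an adjusted p under 0.05, and 8.01% of its genes lower and 8.19% higher. Those 17 are not all the same genes: by the authors' DESeq2 Ndufa13 passed (adjusted p = 0.0433) and Ndufa11 did not (adjusted p = 0.064). At an unadjusted p under 0.05 limma had 28 members lower and 1 higher, against 20.2% and 16.9% of all genes tested.

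The count depended on single libraries. Without SPOP_CKI 3 it was 32 members lower, with all 17 kept, while the share called lower over all genes tested was 17.4%. Among the members gained were Ndufa1, Ndufa2, Ndufa5, Ndufa8, Ndufa9, Ndufa13 and Ndufb2, whose values without that library are not given below. Without Cre_control 1 the count was 11, at 7.39% of all genes. With other libraries left out, used below for shorter lists, the share of all genes called lower was 12.7% without SPOP_CKI 1, 11.1% without SPOP_CKI 2, 9.21% without SPOP_CKI 4, 13.1% without SPOP_CKI 5, 8.02% without Cre_control 2, 8.73% without Cre_control 3 and 7.54% without Cre_control 4. The share called higher was 9.24% without SPOP_CKI 2 and 13.7% without SPOP_CKI 3. The median log2 fold change of the members lay between -0.89 and -0.66 over the fits that left out 1 library.

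**Figure D1:**
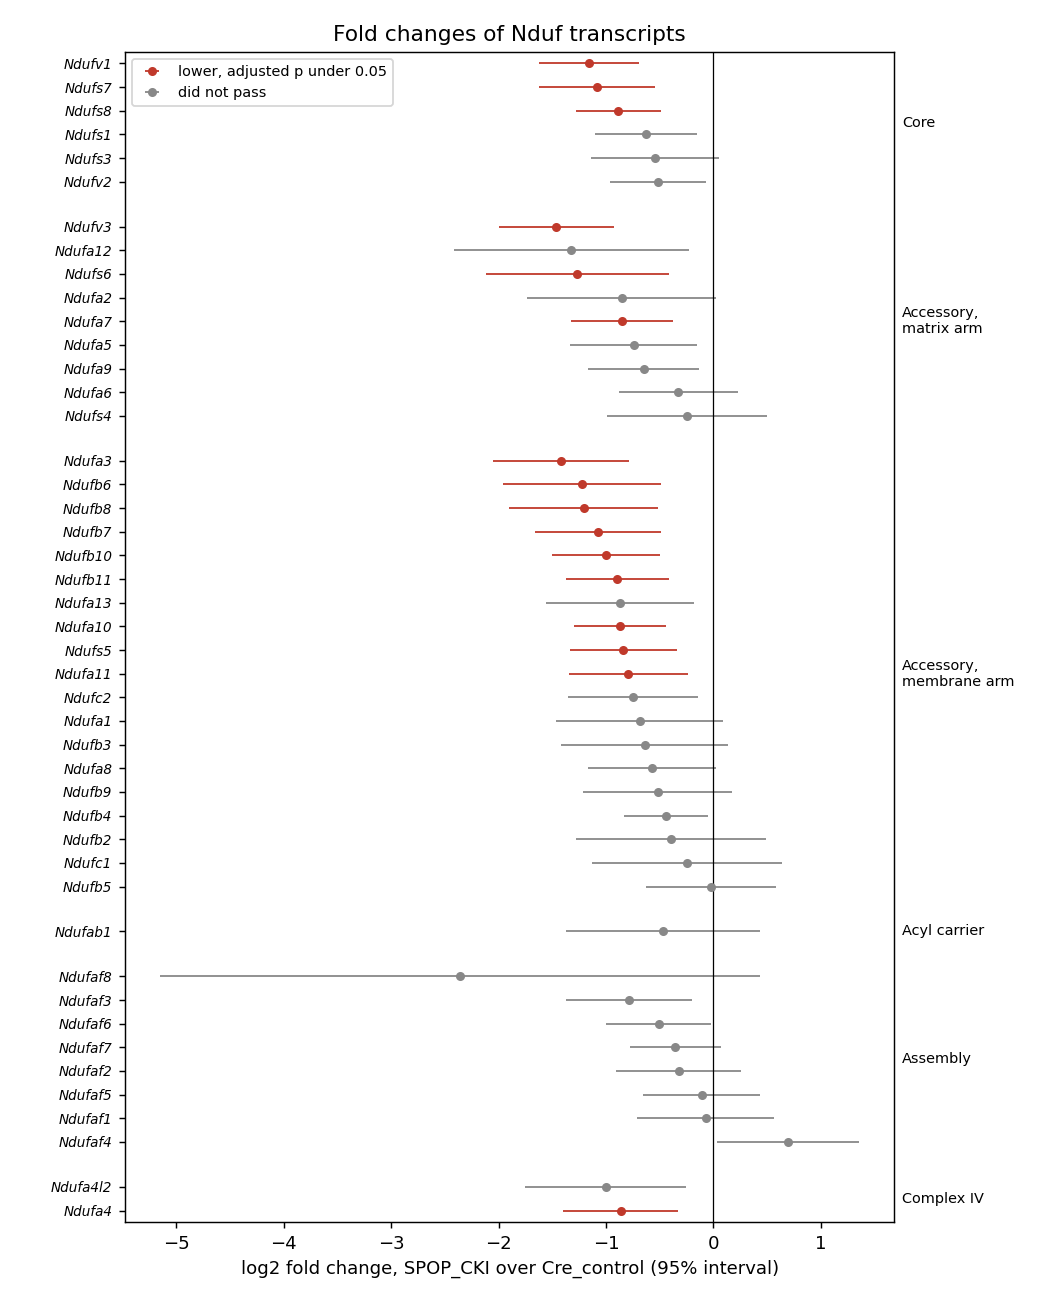
Log2 fold change (SPOP_CKI over Cre_control, on log2(scaled reads + 1)) with its 95% confidence interval for 45 of the 46 Nduf genes, grouped by role, with called genes coloured. Called genes all lie to the left of 0, while no assembly factor was called and Ndufaf4 is the only gene to the right of 0.

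The start regions of the members were searched for short motifs of factors known for mitochondrial genes: NRF1, GABP, the oestrogen-related receptors (ERR) and YY1. RefSeq promoter windows (GRCm38.p6, 250 bases before to 50 after the start site) were held for 40 of the 46 members, in 42 windows. The letters searched on both strands were GCGCN followed directly by TGCGC (NRF1), CCGGAAG (GABP), AAGGTCA (ERR) and AAGATGGC (YY1). The NRF1 letters lay in 10 of the 42 windows (23.8%), in 9.31% of the windows of tested genes and in 4.6% of all windows. The YY1 letters lay in 8 (19%), in 4.09% of tested genes' windows and in 2.75% of all. The GABP letters lay in 6 (14.3%), against 16.2% of tested genes' windows and 8.86% of all, and the ERR letters in 3 (7.14%), against 3.29% and 4.72%. Of the 16 called members with a window, 3 held the NRF1 letters, 4 YY1, 3 GABP and 1 ERR. These are matches of letters, not binding sites, and the shares were not tested.

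Windows of 4 genes are printed because they show these motifs at genes described below: 3 that fell (Ndufa3, Ndufs6, Ndufs5) and Ndufaf4, the single member with a positive fold change. Capitals mark the motif letters on either strand, and each window runs 5′ to 3′ on the gene's strand with the start site after base 250. Ndufa3 is at chr7:3617123-3617422 (plus strand), Ndufs6 at chr13:73328433-73328732 (minus), Ndufs5 at chr4:123718137-123718436 (minus) and Ndufaf4 at chr4:24897833-24898132 (plus).
Ndufa3: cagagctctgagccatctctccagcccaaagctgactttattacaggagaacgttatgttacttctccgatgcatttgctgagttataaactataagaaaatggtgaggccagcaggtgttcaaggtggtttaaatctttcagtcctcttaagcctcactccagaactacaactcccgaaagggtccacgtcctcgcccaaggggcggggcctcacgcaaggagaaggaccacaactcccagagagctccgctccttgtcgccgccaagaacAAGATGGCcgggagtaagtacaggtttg
Ndufs6: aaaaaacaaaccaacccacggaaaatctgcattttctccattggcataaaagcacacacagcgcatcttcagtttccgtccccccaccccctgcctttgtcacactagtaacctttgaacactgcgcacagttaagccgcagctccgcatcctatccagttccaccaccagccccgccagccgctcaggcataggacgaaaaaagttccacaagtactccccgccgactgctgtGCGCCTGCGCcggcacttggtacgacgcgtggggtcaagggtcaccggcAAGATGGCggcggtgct
Ndufs5: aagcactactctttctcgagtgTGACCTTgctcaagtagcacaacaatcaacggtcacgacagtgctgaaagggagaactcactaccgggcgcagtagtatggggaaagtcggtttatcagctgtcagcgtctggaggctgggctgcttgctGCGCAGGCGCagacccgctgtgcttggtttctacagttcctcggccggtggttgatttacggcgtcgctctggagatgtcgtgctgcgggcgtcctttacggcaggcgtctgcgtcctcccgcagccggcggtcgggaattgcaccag
Ndufaf4: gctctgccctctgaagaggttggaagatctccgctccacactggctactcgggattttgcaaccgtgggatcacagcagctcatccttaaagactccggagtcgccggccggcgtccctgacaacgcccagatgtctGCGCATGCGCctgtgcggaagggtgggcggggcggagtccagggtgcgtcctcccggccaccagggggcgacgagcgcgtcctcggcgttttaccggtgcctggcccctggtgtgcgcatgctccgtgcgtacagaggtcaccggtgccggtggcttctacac
The YY1 letters begin 22 bases after the start site in Ndufa3 and 33 bases after it in Ndufs6. The NRF1 letters begin at -16 in Ndufs6, at -98 in Ndufs5 and at -113 in Ndufaf4. The ERR letters of Ndufs5, read on the other strand, begin at -228.

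Among the 7 core nuclear subunits, which carry the redox chain from NADH to ubiquinone, 4 fell, among them Ndufv1, Ndufs7 and Ndufs8. The median log2 fold change over the 7 was -0.89, and the summed core reads did not overlap between groups, at 22413 to 46079 in SPOP_CKI and 50687 to 63018 in Cre_control. Ndufv1 (mm10 chromosome 19, 4007497 to 4012806, minus strand), which binds NADH and the flavin, had 6646, 3589, 3821, 3941 and 6156 scaled reads in SPOP_CKI hearts 1 to 5, against 12205, 9946, 9623, 12015 and 8721 in Cre_control hearts 1 to 5. No SPOP_CKI heart reached the lowest control, and the log2 fold change was -1.16 ± 0.21 (SE), adjusted p = 0.00407. Ndufs7, at the ubiquinone pocket, had 5723, 2119.6, 2902, 3071 and 2519 scaled reads in SPOP_CKI hearts 1 to 5, against 7158, 6620.5, 6920.2, 7225 and 4978 in Cre_control hearts 1 to 5. SPOP_CKI 1 overlapped the lowest control, Cre_control 5, and the other 4 SPOP_CKI hearts lay below all controls (log2 fold change -1.09 ± 0.25 (SE), adjusted p = 0.011). Ndufs8, which holds iron-sulphur clusters next to that pocket, had 2608, 1337, 2028, 1996 and 2111 scaled reads in SPOP_CKI hearts 1 to 5, against 3853, 3923, 3482, 3965 and 3072 in Cre_control hearts 1 to 5. The groups did not overlap (log2 fold change -0.89 ± 0.18 (SE), adjusted p = 0.00664).

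Core subunits that did not pass the test included Ndufs1, Ndufv2 and Ndufs3. Ndufs1, which holds iron-sulphur clusters near the entry of electrons, had 8621, 4172, 9397, 5465 and 6903 scaled reads in SPOP_CKI hearts 1 to 5, against 10320.1, 9932, 11019, 10051 and 9973 in Cre_control hearts 1 to 5. Its groups did not overlap either, yet the adjusted p was 0.0577 (log2 fold change -0.63), and it was 0.0152 without SPOP_CKI 3. Ndufv2, the iron-sulphur partner of Ndufv1, had 7941, 3668, 5590.1, 4645 and 6165 scaled reads in SPOP_CKI hearts 1 to 5, against 8343, 8616, 7568, 7571 and 6729.6 in Cre_control hearts 1 to 5. SPOP_CKI 1 lay within the control range and the others below it (log2 fold change -0.51 ± 0.20 (SE), adjusted p = 0.0897), and it was called lower without SPOP_CKI 1. Ndufs3, a matrix arm subunit without a redox group, had 4447, 1996, 6019, 2473 and 3347 scaled reads in SPOP_CKI hearts 1 to 5, against 5379, 5488, 4551, 5357 and 4089 in Cre_control hearts 1 to 5. SPOP_CKI 3 was the highest of all 10 libraries for Ndufs3, and the adjusted p was 0.167 with that library and 0.0216 without it (log2 fold change -0.55 and -0.75).

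**Figure D2:**
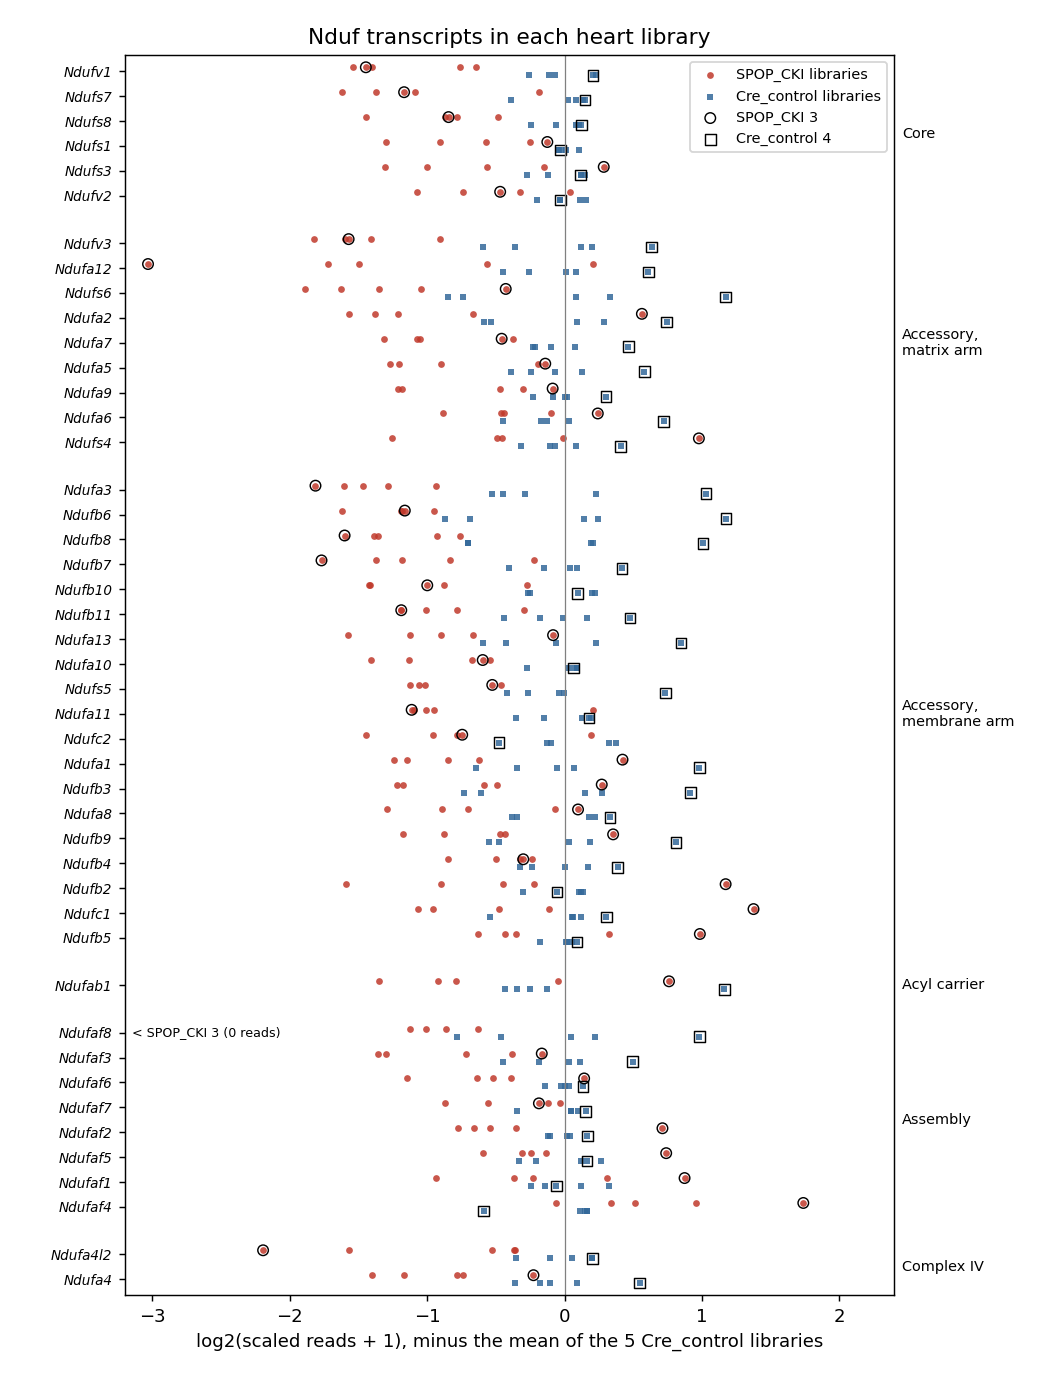
Nduf genes (45 of the 46) in each library as log2 of scaled reads + 1 minus the mean of the 5 Cre_control libraries, with SPOP_CKI hearts as circles above Cre_control hearts as squares, and SPOP_CKI 3 and Cre_control 4 outlined. SPOP_CKI 2 is below the lowest control for 45 of the 46 genes, while SPOP_CKI 1 and SPOP_CKI 3 are below it for 21 each.

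Accessory subunits surround the core and are needed for its assembly and stability. In the matrix arm 3 of 9 fell: Ndufv3, Ndufs6 and Ndufa7, with a median log2 fold change of -0.85 over the 9. The number was 6 without SPOP_CKI 3, 5 without SPOP_CKI 1 and 1 with length centring, described below. Ndufv3, a small subunit bound to the flavin module, had the most negative fold change of the called members, with 1310.0, 928, 828, 811 and 693 scaled reads in SPOP_CKI hearts 1 to 5, against 2833, 2669, 1918, 3818 and 1631 in Cre_control hearts 1 to 5. The highest SPOP_CKI heart lay below the lowest control (log2 fold change -1.46 ± 0.25 (SE), adjusted p = 0.00264, a 2.76-fold lower level). Ndufs6, which binds zinc, had 946, 629, 1448, 525 and 765 scaled reads in SPOP_CKI hearts 1 to 5, against 2445, 2068, 1169, 4389.7 and 1081 in Cre_control hearts 1 to 5. SPOP_CKI 3 lay above 2 of the controls, and Cre_control 4 was far above the other controls (log2 fold change -1.27 ± 0.39 (SE), adjusted p = 0.0383). The Ndufs6 call was lost when any of 6 libraries was left out. Without Cre_control 4 the log2 fold change was -0.97 and the adjusted p 0.0817. Ndufa7 ranged over 1139.5 to 2181 scaled reads in SPOP_CKI and 2415 to 3905 in Cre_control (log2 fold change -0.85 ± 0.22 (SE), adjusted p = 0.0173).

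The 6 matrix arm subunits that did not pass were Ndufa2, Ndufa5, Ndufa6, Ndufa9, Ndufa12 and Ndufs4, with log2 fold changes from -1.32 to -0.25. Ndufa12, described here after its values were seen, is a late-added subunit of the matrix arm, and had 1912, 1118, 201, 585 and 501 scaled reads in SPOP_CKI hearts 1 to 5, against 1383, 1212, 1750.5, 2524 and 1669.8 in Cre_control hearts 1 to 5. SPOP_CKI 1 lay inside the control range, SPOP_CKI 2 just below it and SPOP_CKI 3, 4 and 5 well below it (log2 fold change -1.32 ± 0.50 (SE), adjusted p = 0.0773), and it was called lower without SPOP_CKI 1. Ndufs4, a subunit whose loss is a known cause of Leigh-like disease in mice and humans, ranged over 1121 to 5286 scaled reads in SPOP_CKI and 2156 to 3562 in Cre_control (log2 fold change -0.25 ± 0.34 (SE), adjusted p = 0.618). Without SPOP_CKI 3 its log2 fold change was -0.55 (adjusted p = 0.0851).

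In the membrane arm 9 of 19 accessory subunits fell: Ndufa3, Ndufa10, Ndufa11, Ndufb6, Ndufb7, Ndufb8, Ndufb10, Ndufb11 and Ndufs5. The median log2 fold change over the 19 was -0.79. The number was 14 without SPOP_CKI 3, 5 without Cre_control 1 and 4 with GC centring or with length centring. Ndufa3, which sits near the junction of the arms, had 1270.3, 878, 691, 799.8 and 997 scaled reads in SPOP_CKI hearts 1 to 5, against 2853, 1991, 1783, 4962 and 1684 in Cre_control hearts 1 to 5. The groups did not overlap, although Cre_control 4 was well above the other controls (log2 fold change -1.42 ± 0.29 (SE), adjusted p = 0.00668). Ndufb6, in the distal part of the membrane arm, had 619, 528, 534, 389 and 523 scaled reads in SPOP_CKI hearts 1 to 5, against 1417, 1319, 743, 2706 and 655 in Cre_control hearts 1 to 5. Its highest SPOP_CKI value was close to its lowest control value, and the groups did not overlap (log2 fold change -1.22 ± 0.34 (SE), adjusted p = 0.0247). The call was lost without Cre_control 1, without Cre_control 2 or without SPOP_CKI 4. In the annotation 39.0% of the exon bases of Ndufb6 are shared with Smim27 on the opposite strand, and whether the counting used strand was not stated in the sources used here.

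Ndufb8, a distal membrane arm subunit often used as a protein marker of complex I, had 1626, 1183, 1021, 1208 and 1829 scaled reads in SPOP_CKI hearts 1 to 5, against 3568, 3545, 1900.1, 6235 and 1907 in Cre_control hearts 1 to 5. The highest SPOP_CKI value was just under the lowest control value (log2 fold change -1.21 ± 0.32 (SE), adjusted p = 0.0199), and the call was lost without Cre_control 1. Ndufb7, on the intermembrane space side, had 2965, 1523, 1016, 1337 and 1940.1 scaled reads in SPOP_CKI hearts 1 to 5, against 3684, 3562, 3128, 4633 and 2623 in Cre_control hearts 1 to 5. SPOP_CKI 1 lay above the lowest control, and the other 4 SPOP_CKI hearts below it (log2 fold change -1.08 ± 0.27 (SE), adjusted p = 0.0159). Ndufa10, which has a nucleoside kinase fold, ranged over 3239.8 to 5899 scaled reads in SPOP_CKI and 7111 to 9174 in Cre_control without overlap (log2 fold change -0.87 ± 0.19 (SE), adjusted p = 0.00997). It was, with Ndufa3 and Ndufv3, 1 of the 3 members called lower under all 22 alternative settings. Ndufs5, on the intermembrane space side, ranged over 1099 to 1744 scaled reads in SPOP_CKI and 1799.5 to 3998 in Cre_control (log2 fold change -0.84 ± 0.23 (SE), adjusted p = 0.0239). Leaving out Cre_control 1 or SPOP_CKI 4 ended that call. Ndufa11 had the least negative fold change of the called members (log2 fold change -0.79 ± 0.25 (SE), adjusted p = 0.0437), and its call was lost when any of 7 libraries was left out.

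At the other end of the membrane arm list was Ndufb5, the member with the largest p. It had 7921, 4091, 12512, 4939.9 and 4686 scaled reads in SPOP_CKI hearts 1 to 5, against 6382, 6405, 6579, 6741 and 5579 in Cre_control hearts 1 to 5. SPOP_CKI 1 and 3 lay above all controls and the other 3 SPOP_CKI hearts below all controls (log2 fold change -0.02 ± 0.28 (SE), adjusted p = 0.962, 95% confidence interval -0.63 to 0.59). Without SPOP_CKI 3 the log2 fold change was -0.27 (adjusted p = 0.304). Its neighbour Mrpl47 shares 12.3% of its exon bases on the opposite strand. Ndufc1, named after its values were seen, had 2994, 1669, 8401, 2324 and 1547 scaled reads in SPOP_CKI hearts 1 to 5, against 3379.6, 3519, 3369, 3998 and 2225 in Cre_control hearts 1 to 5. SPOP_CKI 3 was above all controls while SPOP_CKI 2 and 5 were below all of them, and the adjusted p was 0.68 with SPOP_CKI 3 and 0.0423 without it (log2 fold change -0.25 and -0.65). Ndufab1, the mitochondrial acyl carrier protein found in both arms, did not pass the test (log2 fold change -0.47 ± 0.41 (SE), adjusted p = 0.425), nor did it without SPOP_CKI 3, at -0.78 (adjusted p = 0.0999).

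None of the 8 assembly factors named Ndufaf was called by limma, with a median log2 fold change of -0.34. At an unadjusted p under 0.05, 2 of the 8 were lower and 1 higher, against the 20.2% and 16.9% given above for all genes tested. By DESeq2, 1 was lower (Ndufaf3) and 1 higher (Ndufaf4), and by edgeR none. Without SPOP_CKI 3 limma called 4 lower (Ndufaf2, Ndufaf3, Ndufaf6 and Ndufaf8), without SPOP_CKI 1 it called 1 lower (Ndufaf3), and without SPOP_CKI 2 it called 1 higher (Ndufaf4). Whether the assembly factors differ from the subunits was not tested.

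Ndufaf4 and Ndufaf3 are partners in building the part of the matrix arm that binds ubiquinone. Ndufaf4, described after its values were seen, had 1651, 811, 2831, 1075 and 1208 scaled reads in SPOP_CKI hearts 1 to 5, against 951, 953, 917, 564 and 939 in Cre_control hearts 1 to 5. SPOP_CKI 1, 3, 4 and 5 lay above all controls and SPOP_CKI 2 lay among them (log2 fold change 0.70 ± 0.30 (SE), adjusted p = 0.118, 95% confidence interval 0.03 to 1.36). Without SPOP_CKI 3 the log2 fold change of Ndufaf4 was 0.44 (adjusted p = 0.144). Ndufaf3, also described after its values were seen, had 302, 153, 350.3, 239 and 159 scaled reads in SPOP_CKI hearts 1 to 5, against 424, 401, 288, 555 and 345 in Cre_control hearts 1 to 5. Its log2 fold change was -0.78 ± 0.27 (SE), adjusted p = 0.0556, opposite in sign to that of Ndufaf4, and -0.94 (adjusted p = 0.0114) without SPOP_CKI 3. With GC centring, described below, both were nearer to no change, at -0.39 (adjusted p = 0.461) for Ndufaf3 and 0.29 (adjusted p = 0.413) for Ndufaf4. Ndufaf1, a member of the assembly complex for the membrane arm, had 639, 268, 944, 439 and 398 scaled reads in SPOP_CKI hearts 1 to 5, against 560.3, 644, 467, 494 and 435 in Cre_control hearts 1 to 5. SPOP_CKI 3 was the highest of all 10 libraries and SPOP_CKI 2 the lowest (log2 fold change -0.07 ± 0.29 (SE), adjusted p = 0.874), and without SPOP_CKI 3 the fold change was -0.31 (adjusted p = 0.307).

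Ndufaf5, which modifies an arginine of Ndufs7, had 228, 165, 419, 211 and 202 scaled reads in SPOP_CKI hearts 1 to 5, against 272, 300.4, 217, 281 and 198 in Cre_control hearts 1 to 5. Here too SPOP_CKI 3 was above all controls, while the other 4 SPOP_CKI hearts were within the control range or below it (log2 fold change -0.11 ± 0.25 (SE), adjusted p = 0.771), and without SPOP_CKI 3 the fold change was -0.32 (adjusted p = 0.189). Ndufaf8, the partner of Ndufaf5, was chosen after its values were seen and had 187, 132, 0, 159 and 144 scaled reads in SPOP_CKI hearts 1 to 5, against 338, 299, 209.7, 574 and 168 in Cre_control hearts 1 to 5. Its 0 in SPOP_CKI 3 set the log2 fold change of -2.36 (adjusted p = 0.199), which was -0.91 (adjusted p = 0.0362) without that library. The remaining Ndufaf2, Ndufaf6 and Ndufaf7, which act on maturing intermediates of the matrix arm, had log2 fold changes of -0.32, -0.51 and -0.35. Without SPOP_CKI 3 they were -0.58 (adjusted p = 0.0192) for Ndufaf2, -0.67 (adjusted p = 0.0158) for Ndufaf6 and -0.40 (adjusted p = 0.134) for Ndufaf7.

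Summed over the 8 factors, assembly reads per 100 subunit reads were 2.95, 3.07, 4.17, 3.64 and 2.94 in SPOP_CKI hearts 1 to 5, against 2.03, 2.16, 2.10, 1.70 and 2.27 in Cre_control hearts 1 to 5. With Ndufaf4 left out the ratios were 1.64, 1.84, 2.03, 2.25 and 1.61 in SPOP_CKI hearts, against 1.47, 1.56, 1.45, 1.42 and 1.52 in Cre_control hearts. In both forms the SPOP_CKI hearts lay above all controls. The ratio was formed after the values were seen and was not tested.

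Of 10 tested assembly factors with other names, 4 were called lower and 0 higher: Foxred1, Nubpl, Ecsit and Acad9. Foxred1, an oxidoreductase-like factor of mid and late assembly, had 528, 302, 241, 452 and 340.1 scaled reads in SPOP_CKI hearts 1 to 5, against 1209, 1118, 1139, 1249.5 and 872 in Cre_control hearts 1 to 5. The groups were far apart and Foxred1 had a log2 fold change of -1.63 ± 0.21 (SE), adjusted p = 0.000826. Nubpl, which delivers iron-sulphur clusters to the complex, had 146, 66.1, 204, 72.3 and 98.0 scaled reads in SPOP_CKI hearts 1 to 5, against 277, 182, 247, 217 and 175 in Cre_control hearts 1 to 5. SPOP_CKI 3 overlapped the controls and the other 4 SPOP_CKI hearts lay below them (log2 fold change -1.01 ± 0.31 (SE), adjusted p = 0.0388), and the call was lost when any of 8 libraries was left out. Ecsit and Acad9 act with Ndufaf1 in the membrane arm assembly complex. Ecsit had 758, 605, 558, 518 and 1064 scaled reads in SPOP_CKI hearts 1 to 5, against 1219, 1329, 987, 1225 and 1148 in Cre_control hearts 1 to 5. Only SPOP_CKI 5 reached the control range (log2 fold change -0.80 ± 0.20 (SE), adjusted p = 0.0158). With GC centring Ecsit had -0.40 (adjusted p = 0.186) and with length centring -0.49 (adjusted p = 0.118), which ended the call. Acad9 had 384, 335, 453, 389 and 579.8 scaled reads in SPOP_CKI hearts 1 to 5, against 658, 729.5, 631, 651 and 561 in Cre_control hearts 1 to 5. SPOP_CKI 5 again lay above the lowest control (log2 fold change -0.61 ± 0.17 (SE), adjusted p = 0.0228). The Acad9 call was lost when any of 4 libraries was left out. The number of these factors called lower was 2 without Cre_control 1, without Cre_control 2 or without Cre_control 4, and 2 with length centring.

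Ndufa4 and its homologue Ndufa4l2 were taken by name although Ndufa4 is counted today with complex IV. Ndufa4 had 6401, 4033, 9116, 4739 and 6204 scaled reads in SPOP_CKI hearts 1 to 5, against 11367, 9922, 9435, 15569 and 8326 in Cre_control hearts 1 to 5. SPOP_CKI 3 alone overlapped the controls, and Cre_control 4 was the highest library (log2 fold change -0.86 ± 0.24 (SE), adjusted p = 0.027). The Ndufa4 call was lost when any of 5 libraries was left out. Ndufa4l2, a hypoxia-induced homologue, had 359.6, 322, 101, 361 and 156 scaled reads in SPOP_CKI hearts 1 to 5, against 482, 534, 432, 534 and 363 in Cre_control hearts 1 to 5. Every SPOP_CKI value lay below every control value, with the highest SPOP_CKI and lowest control values nearly equal (log2 fold change -1.0, adjusted p = 0.0558), and without SPOP_CKI 3 the log2 fold change was -0.71 (adjusted p = 0.0414).

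The 7 mitochondrially encoded core subunits are the proton-pumping part of the complex. None was called by limma, edgeR or DESeq2, and none had an unadjusted p under 0.05 by limma. Without SPOP_CKI 5, limma called 2 lower (mt-Nd4l and mt-Nd5). Their median log2 fold change was -0.72, and it depended on the libraries and the scaling: it was -0.39 without SPOP_CKI 3 and -1.12 without SPOP_CKI 5, -1.16 with GC centring, -0.37 with length centring, -0.14 with quantile normalization, -0.40 by DESeq2 and -0.38 by edgeR. mt-Nd1 had 374681, 248128, 119381, 336987 and 659681 scaled reads in SPOP_CKI hearts 1 to 5, against 508623, 525785, 544600.0, 344636 and 595405 in Cre_control hearts 1 to 5. SPOP_CKI 3 was lowest and SPOP_CKI 5 highest of all libraries (log2 fold change -0.72 ± 0.40 (SE), adjusted p = 0.21, and -0.39 (adjusted p = 0.374) without SPOP_CKI 3). mt-Nd2 had 225076, 197527, 120920.0, 312549 and 525861 scaled reads in SPOP_CKI hearts 1 to 5, against 290941, 328173, 389241, 216901 and 364923 in Cre_control hearts 1 to 5. mt-Nd4 had 194988, 189235, 64550.5, 248344 and 513669 scaled reads in SPOP_CKI hearts 1 to 5, against 363361, 376923, 442369, 227057 and 407243 in Cre_control hearts 1 to 5. mt-Nd5 had 217580.0, 265491, 116149, 350917 and 964145 scaled reads in SPOP_CKI hearts 1 to 5, against 438751, 448125, 644311, 303468 and 654636 in Cre_control hearts 1 to 5. For these genes too SPOP_CKI 3 was the lowest and SPOP_CKI 5 the highest library, with log2 fold changes of -0.35 for mt-Nd2, -0.84 for mt-Nd4 and -0.69 for mt-Nd5. Without SPOP_CKI 3 those were -0.092 for mt-Nd2, -0.44 for mt-Nd4 and -0.36 for mt-Nd5. mt-Nd6 had 148392, 98908, 30205, 176763 and 292071 scaled reads in SPOP_CKI hearts 1 to 5, against 179657, 188905, 242304, 59322 and 218549 in Cre_control hearts 1 to 5. SPOP_CKI 3 was again the lowest and SPOP_CKI 5 the highest library, and Cre_control 4 was the lowest control (log2 fold change -0.44 ± 0.58 (SE), adjusted p = 0.599, and 0.048 without SPOP_CKI 3). mt-Nd6 lies on the minus strand, and its annotated bases (13552 to 14070) overlap those of mt-Nd5 (11742 to 13565, plus strand). The strand setting is not stated, so some mt-Nd6 reads may come from mt-Nd5 transcripts. mt-Nd3 had 458, 354, 1540.5, 980.1 and 3687 scaled reads in SPOP_CKI hearts 1 to 5, against 9818, 3649.8, 12379, 362 and 873 in Cre_control hearts 1 to 5. mt-Nd4l had 1573, 2484, 276, 1048 and 28776 scaled reads in SPOP_CKI hearts 1 to 5, against 19672, 12812, 7224, 1258 and 4171 in Cre_control hearts 1 to 5. The reads of these short annotated genes varied widely within each group. Their log2 fold changes were -1.46 ± 0.99 (SE), adjusted p = 0.303 for mt-Nd3 and -1.64 ± 1.10 (SE), adjusted p = 0.299 for mt-Nd4l. Without SPOP_CKI 3 they were -1.62 for mt-Nd3 and -0.92 for mt-Nd4l. The annotated bases of mt-Nd4l (9877 to 10173) overlap those of mt-Nd4 (10167 to 11544) on the same strand. How reads over both genes were assigned is not stated. All mitochondrially encoded genes together took 13.1 to 33.8% of the reads in SPOP_CKI hearts and 19.1 to 30.5% in controls.

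Libraries of a group differed in most members at once. The 46 members summed to 136274, 72222, 146890.0, 85082 and 99998 scaled reads in SPOP_CKI hearts 1 to 5, against 184152, 173871, 154618, 221159 and 136737 in Cre_control hearts 1 to 5. SPOP_CKI 1 and 3 lay near or above the lowest control, and SPOP_CKI 2, 4 and 5 well below it. SPOP_CKI 3 was the highest of its group for 24 members and SPOP_CKI 1 for 19, while SPOP_CKI 2 was the lowest for 27. Among controls, Cre_control 4 was the highest for 34 members and Cre_control 5 the lowest for 37. Members below the lowest control numbered 21, 45, 21, 38 and 43 in SPOP_CKI hearts 1 to 5. Members above the highest control numbered 3, 0, 10, 1 and 1. The mitochondrially encoded genes ran the other way in single libraries: SPOP_CKI 3 had the lowest summed mt-Nd reads of all 10 libraries, and Cre_control 4 the lowest of the controls.

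**Figure D3:**
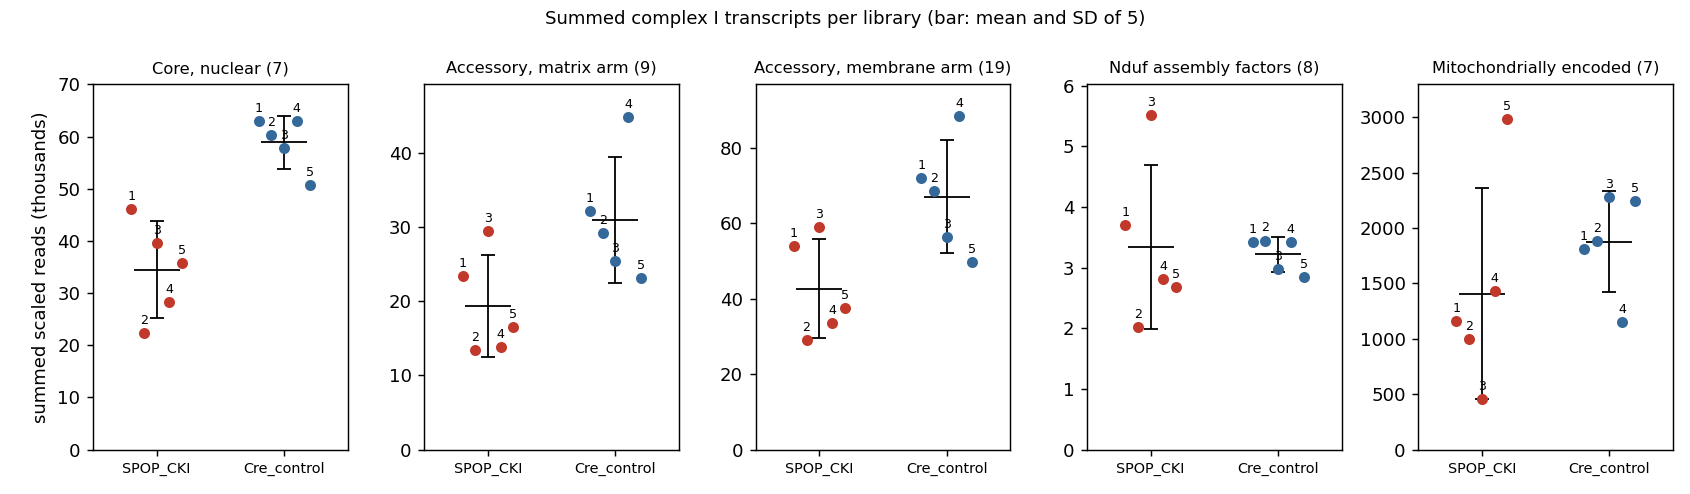
Summed scaled reads per library of the core subunits, matrix arm and membrane arm accessory subunits, assembly factors and mitochondrially encoded subunits, with SPOP_CKI left of Cre_control, each point a library numbered as in the titles, and bars giving mean ± SD (n = 5). The core sums do not overlap (22413 to 46079 in SPOP_CKI, 50687 to 63018 in Cre_control), while the assembly factor and mitochondrially encoded sums do.

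Levels were compared between genes per kilobase of annotated exon. Ndufa4 was the highest member, at 4416 ± 1417 scaled reads per kb in SPOP_CKI and 7910.0 ± 2040.0 in Cre_control (SD, n = 5 each). Ndufaf2, a factor of late matrix arm assembly, was the lowest member, at 61.2 ± 31.2 scaled reads per kb in SPOP_CKI and 71.0 ± 5.78 in Cre_control. The 8 Ndufaf genes were between rank 35 and rank 46 of 46 in SPOP_CKI and between rank 37 and rank 46 in Cre_control. These lengths join all annotated exons and can understate a level: Ndufb2 has 5628 such bases and Ndufab1 6883, and both ranked among the assembly factors.

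The size of the fold change varied with base composition across the members. Spearman's rho between log2 fold change and transcript GC content was -0.68 over the 46 members and -0.44 over 14201 tested genes, given as a description, since genes of the same libraries are not independent. With exon length rho was 0.34 over the members and 0.23 over the tested genes. The members are short, with a median of 1635 bases against 4224. Single libraries deviated with GC content too. Over the members, rho with GC content was -0.58 for SPOP_CKI 3 minus the mean of the other SPOP_CKI libraries. For Cre_control 4 minus the mean of the other controls it was 0.20. The rho of the fold change without SPOP_CKI 3 was not computed. Centring the log2 values on GC content within each library left 10 members lower, 6 of them among the 17, against 8.68% of all genes. Among the 7 core subunits 2 were then called lower. Ndufv1, at -0.64, Ndufs7, at -0.45, and Ndufs8, at -0.26, were among the calls lost, and Ndufs1 and Ndufv2 among those gained. Outside the core, the calls of Ndufa7, Ndufa11, Ndufb7, Ndufb8, Ndufb10, Ndufs5 and Ndufs6 were lost with GC centring. Centring on exon length, an alternative added after the data were seen, left 8 members lower, 7 of them among the 17, against 11.0% of all genes. Calls lost with it included Ndufa4, Ndufa7, Ndufa11, Ndufb6, Ndufb10, Ndufb11, Ndufs5, Ndufs6 and Ndufs8. The median log2 fold change of the members was -0.60 with GC centring and -0.42 with length centring. Ndufa3, Ndufa10 and Ndufv3 were called under both. The part of base composition and length in the result was not tested further.

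**Figure D4:**
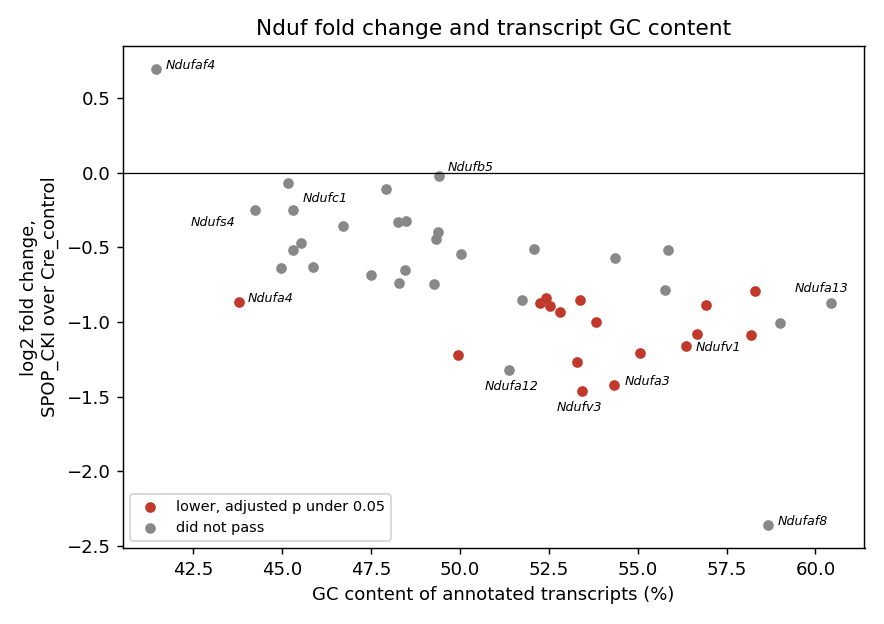
Log2 fold change (SPOP_CKI over Cre_control) of the 46 Nduf genes against the GC content of their annotated transcripts in percent, with called genes coloured. Fold changes are more negative at higher GC content (Spearman's rho -0.68, n = 46), with Ndufaf4 at the low-GC, positive end. The most negative point, Ndufaf8, is set by its 0 in SPOP_CKI 3 and is at -0.91 without that library.

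Other parts of the respiratory chain were read beside the members, from lists written with earlier results of these data known. Of 10 genes that feed ubiquinone without complex I (complex II, the electron transfer flavoprotein route and others), 6 were called lower. The corresponding number was 5 of 9 for complex III, 8 of 14 for complex IV and 4 of 16 for the ATP synthase. These counts, too, depended on single libraries. For the ubiquinone-feeding genes 3 were called lower without Cre_control 1, 2, 3 or 4, each left out alone, and 9 without SPOP_CKI 3. For complex III the count was 5 to 7 with any 1 library left out, and 3 with GC centring. For complex IV it was 3 without Cre_control 1, 4 without Cre_control 2, 3 or 4 or SPOP_CKI 4, 5 without SPOP_CKI 2 or 5, and 12 without SPOP_CKI 3. It was also 5 with GC centring or quantile normalization and 3 with length centring. Over all genes tested, 13.6% were called lower with quantile normalization. For the ATP synthase it was 1 without Cre_control 1, 2, 3 or 4, 2 without SPOP_CKI 2, 4 or 5, 8 without SPOP_CKI 3, and 2 with length centring. None of these lists had a member called higher by limma, edgeR or DESeq2, and 1 gene of the first list was higher at an unadjusted p under 0.05. That gene, named after its values were seen, was Gpd2, the mitochondrial glycerol-3-phosphate dehydrogenase (log2 fold change 0.40 ± 0.15 (SE), adjusted p = 0.0789, and adjusted p = 0.0491 without SPOP_CKI 3). Median log2 fold changes were -0.87 for the ubiquinone-feeding genes, -0.97 for complex III, -0.81 for complex IV and -0.47 for the ATP synthase, against -0.81 for the 36 complex I subunits. Whether complex I differed from the other complexes was not tested.

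Cell type markers moved with the same groups. Of 12 ventricular cardiomyocyte markers, 5 fell and 1 rose, and their sum was 391439 to 720301 scaled reads in SPOP_CKI and 689831 to 903398 in Cre_control. The marker that rose was not called without SPOP_CKI 1 or 4 or Cre_control 3 or 4, and with GC centring 3 of the markers were called lower. Of 8 fibroblast markers 2 rose and 0 fell, with sums of 31589 to 141604 in SPOP_CKI and 28241 to 32605 in Cre_control. The highest sums were in SPOP_CKI 2 and SPOP_CKI 4, which also had the lowest sums of complex I genes. Other libraries did not keep that order. SPOP_CKI 3, at 57693, lay above all controls and had the highest complex I sum of its group (146890). SPOP_CKI 5, at 31589, lay within the control range and had a complex I sum of 99998, below all controls. The number of fibroblast markers called higher was 5 by edgeR and by DESeq2 and 4 without SPOP_CKI 3. It was 1 without SPOP_CKI 2 or 4 or any 1 Cre_control library, 1 with length centring and 0 with GC centring. Over all genes tested, 1474 of 14212 were called higher with length centring and 1323 of 14201 with GC centring. Without SPOP_CKI 4 it was 1066 of 14034 genes. With 1 control left out it ran from 891 of 14013 genes (Cre_control 4) to 1162 of 14012 (Cre_control 5). Of 6 endothelial markers 4 fell, with sums of 15385 to 25511 in SPOP_CKI and 39615 to 54556 in Cre_control. Of 6 macrophage markers 1 fell and 2 rose (sums of 4349 to 21318 in SPOP_CKI and 5200.4 to 7837 in Cre_control). No macrophage marker was called higher without Cre_control 1, 2, 3 or 4, without SPOP_CKI 2 or 4, or with GC centring, and 1 was without SPOP_CKI 3 or Cre_control 5 or with length centring. Of 6 smooth muscle and pericyte markers 1 fell and 1 rose (20828 to 32968 in SPOP_CKI and 20779 to 27824 in Cre_control). Of 5 erythroid markers 4 fell (5309 to 8887 in SPOP_CKI and 13967 to 28111 in Cre_control), and the single brown adipocyte marker of 4 that could be tested was not called (sums of the 4 were 232 to 466 in SPOP_CKI and 315 to 617 in Cre_control). No listed marker was at 0 in all libraries of a group. The part of these cells in the complex I result was not tested, and in whole-heart RNA fewer cardiomyocytes and less RNA per cardiomyocyte cannot be told apart.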

How the data were processed

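Poly(A) RNA from mouse hearts was sequenced in 10 libraries, 5 per group, grouped by their labelled title and genotype. The submitters' processing notes name featureCounts 1.5.0-p3, DESeq2 1.20.0 and mm10. The aligner, the annotation release and the strand setting are not stated in the sources used here. The deposited per-library columns hold a scaled read signal, that is, reads divided by a size factor, and whole reads were recovered for 100% of values at a tolerance of 0.001. The authors also deposited group means, a log2 fold change and a p-value per gene. All per-sample columns were used.

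Members were tested in limma 3.58.1 (lmFit, eBayes with trend and robust variances, R 4.3.3) on log2(value + 1) over the 14212 genes that reached 10 scaled reads in 5 or more libraries, two-sided, with Benjamini-Hochberg adjustment over all of them at 0.05. Depth was 15316293 to 17114869 reads per library, and libraries of a group differed by more than counting noise in every pair (chi-square per degree of freedom 12.7 or more). Data were simulated from these libraries for SPOP_CKI against Cre_control (13896 genes). In them 18.6% of 97 log2 changes of 1 and 71.6% of 95 log2 changes of 2 were recovered, with 3 false calls. So few changed genes make the adjustment stricter than in the real fit, which called 1747 genes lower and 1421 higher. These shares are therefore not the power of the real fit. Alternatives were edgeR 4.0.16 and DESeq2 1.42.0 on recovered reads, other scalings, filters and pseudocounts, GC and length centring, array weights, a replicate block and each library left out. GC content and exon overlaps came from GENCODE M21, and exon lengths were the gene lengths deposited with the values.

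The members and lists were chosen with earlier results of these data known. Library values are printed for the core subunits, the 8 called members with the most negative fold change, called members with a positive one, the 3 uncalled members with the largest p, Ndufa4, Ndufa4l2, the mitochondrially encoded subunits and called assembly factors with other names; other genes given so are marked as chosen after their values were seen. Exon bases are shared with a gene on the opposite strand for 17 members, and the pseudogene copies Ndufab1-ps, Ndufb4c and Ndufs6b may share reads with their parents. A member that this rule takes is not reported here by name.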

Additional observations from a re-analysis of the deposited data

Results flagged for a closer look

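A library far from the other 4 of its group was marked in 16 of 116 groups of 5 libraries, where chance marks about 1 in 20 and groups share the same libraries. In SPOP_CKI 3 the high values were 2373 scaled reads for Ndufa1, 4892 for Ndufa2, 346 for Ndufaf2, 1992 for Ndufb2, 419 for Ndufaf5 and 8401 for Ndufc1. SPOP_CKI 1 was high for Ndufs7 (5723) and Ndufa11 (4351). SPOP_CKI 5 was high for mt-Nd4l (28776) and mt-Nd5 (964145). In the controls, Cre_control 4 was high for Ndufs5 (3998) and Ndufab1 (5319) and low for Ndufaf4 (564), and Cre_control 5 was low for Ndufa10 (7111), Ndufs7 (4978) and Ndufaf7 (322).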

How the results depend on the processing

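The count of 17 members lower was 10 with GC centring, 8 with length centring (added after the data were seen), 34 with array weights and 27 without both SPOP_CKI 3 and Cre_control 4 (also added after). Of all genes tested 20.3% were called lower with array weights and 13.6% without those libraries, against 12.3% in the fit reported. Leaving out 1 library gave 11 to 32 lower and 0 to 1 higher, and DESeq2 gave 1 higher. The other settings gave 15 to 22 lower. The causes were not tested. The median log2 fold change of the members stayed below 0 under all 22 alternatives, from -0.89 to -0.42. Over all genes tested that median was -0.11, and 0.03 with quantile normalization, where the members stood at -0.69. Deviations of same-numbered libraries of the groups correlated weakly (0.026 to 0.159, 3 of 5 over 0.1), and 2 libraries were best matched by their own number. These values do not settle whether same-numbered libraries are paired. A replicate block gave 18 members lower, losing Ndufs6 and gaining Ndufa4l2 and Ndufc2, against 11.5% of all genes tested. Signs turned to positive log2 fold changes with GC centring for Ndufa13 (0.013), and with length centring for Ndufa6 (0.025), Ndufb5 (0.030), Ndufs4 (4.99e-05), Ndufaf5 (0.24), Ndufaf1 (0.28), Ndufc1 (0.11) and mt-Nd2 (0.075). By DESeq2 they turned for Ndufb5 (0.11), Ndufaf1 (0.053) and Ndufc1 (0.045), and by edgeR for Ndufb5 (0.12), Ndufaf1 (0.064) and Ndufc1 (0.049). Quantile normalization turned Ndufb5 (0.14) and mt-Nd2 (0.31). With 1 library left out, log2 fold changes spanned -0.27 to 0.13 for Ndufb5, -0.55 to 0.0051 for Ndufs4, -0.32 to 0.012 for Ndufaf5, -0.31 to 0.15 for Ndufaf1 and -0.80 to 0.048 for mt-Nd6. In simulated data with far fewer changed genes, changes of 1 on the log2 scale were mostly missed, which does not give the share missed here.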
